A study of Mus musculus with 2 samples.

Results

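Among single cells of day-2 embryoid bodies, those richest in Lefty2 and Fgf17 transcripts in the DMSO library were picked out by raw count. A cell was a member when it held at least 3 unique molecular identifiers (UMIs, each counting 1 captured transcript molecule) summed over Lefty2 and Fgf17, at least 500 detected genes and at most 10% of its UMIs from mitochondrial genes. By that rule 1321 of 17878 kept DMSO cells were members, which is 7.39% (95% exact binomial interval 7.01% to 7.78%), out of 29466 kept cells in the series. They are set against the 11310 kept DMSO cells with 0 UMIs of both genes. The other 5247 kept cells held 1 or 2.

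Embryoid bodies are aggregates of mouse embryonic stem cells, here of the J1 strain, male, in which differentiation begins. The series holds 1 dTAG13 library and 1 DMSO library of 10x Genomics 3′ single-cell RNA, both taken after 2 days of treatment. dTAG13 is a small molecule that directs proteins carrying its binding tag to degradation, DMSO is its solvent, and the series' title names Tex10, a nuclear protein of the rixosome complex. The labels do not say which protein is tagged, whether the line is 1 clone or how many aggregates were pooled.

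Nodal is a secreted TGF-β family ligand that signals through activin receptors, the co-receptor Tdgf1 (Cripto) and Smad2 and Smad3. Lefty1 and Lefty2 are secreted inhibitors of Nodal and are themselves switched on by it, so the pathway limits itself, and in the mouse embryo Lefty2 marks nascent mesoderm and the left side of the body. Fgf17 is a secreted ligand of the Fgf8 subfamily that is expressed around the primitive streak, Tcf15 is a basic helix-loop-helix factor expressed as the epiblast leaves naive pluripotency and again in somites, and Plac8 is a small cysteine-rich protein found in several epithelial and blood cells.

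The kept cells hold 91808969 UMIs in the dTAG13 library and 117189816 in the DMSO library, with medians of 7072.5 and 6014 UMIs per cell. The libraries share 64 barcode sequences, 63 of them among kept cells. With 1 library per treatment no difference between treatments or between groups of cells has a replicate check, so intervals below are 95% exact intervals that cover counting error only, and no p-values are given. Levels are summed over the cells of a group and given as CPM, the UMIs of a gene per 1000000 UMIs of that group.

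The rule selected mainly Lefty2 cells. Of the members, 899 (68.1%) held Lefty2 and no Fgf17, 413 (31.3%) held both genes, and 9 (0.681%) held Fgf17 alone. A member carried a median of 3 UMIs of the pair and at most 13. Lefty2 stood at 416 CPM in members and Fgf17 at 50.5 CPM, both of which were fixed by the rule and are given as description. Over all kept cells the library sums were 44.7 CPM for Lefty2 in dTAG13 cells and 86.4 CPM in DMSO cells, and 3.89 CPM for Fgf17 in dTAG13 cells and 16.4 CPM in DMSO cells.

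Most members sat just above the limit. Exactly 3 UMIs were held by 677 of the 1321 members, while 1572 cells lay just outside it with exactly 2, and 322 cells (1.80%) had 5 or more. Cells with exactly 3 had a median of 7264 UMIs in all and Lefty1 at 256 CPM, and cells with exactly 2 had a median of 6929 UMIs and Lefty1 at 228 CPM.

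Depth went with membership. Members had a median of 7544 UMIs and 2321 detected genes, against 5644 UMIs and 1884.5 genes in 0-UMI cells, a ratio of 1.34 in UMIs, while the median mitochondrial share was 2.50% in members and 2.47% in 0-UMI cells. Members made up 1.72%, 4.36%, 9.03% and 14.5% of kept cells from the shallowest to the deepest of 4 equal classes of depth. When each cell was thinned to 3000 UMIs, 240 of 17197 DMSO cells still held 3 or more, a share of 1.40%, and 681 shallower cells were left out, 2 of them members and 584 of them 0-UMI cells. A count of 0 at these depths does not show that a cell lacks the transcripts, so the 0-UMI cells can include cells that express either gene.

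A check on free RNA used cells of another state. Among 30 DMSO cells with 5 or more UMIs of 2-cell-like genes, a rare cell state of embryonic stem cell cultures, 2 held a Lefty2 UMI (6.67%, interval 0.818% to 22.1%) at a median of 5428 UMIs. Among the other kept cells 31.6% did, at a median of 6014. Those 2 cells held 9 Lefty2 UMIs together and were both members, so the share of members was 6.67% in the 2-cell-like cells and 7.39% in the whole library. For Fgf17 the share in the 2-cell-like cells was also 2 of 30 (interval 0.818% to 22.1%), against 9.36% of the others. With 30 cells, 2 of them members, the check cannot tell whether the lowest Fgf17 counts came from free RNA.

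Each gene's CPM in members was divided by its CPM in 0-UMI cells. Of 6549 genes with at least 10 CPM in either group, 20 were at least 1.5-fold higher in members (0.305%) and 26 at least 1.5-fold lower (0.397%). The median gene had a log2 ratio of 0.02, and 3779 genes had a ratio above 1. Members therefore differed from 0-UMI cells in few genes. Of the 20 higher genes 16 were under 10 CPM in 0-UMI cells and of the 26 lower genes 14 were under 10 CPM in members, so they entered through the group where they were high, and with a minimum of 20 CPM the counts were 5 and 13.

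**Figure D1:**
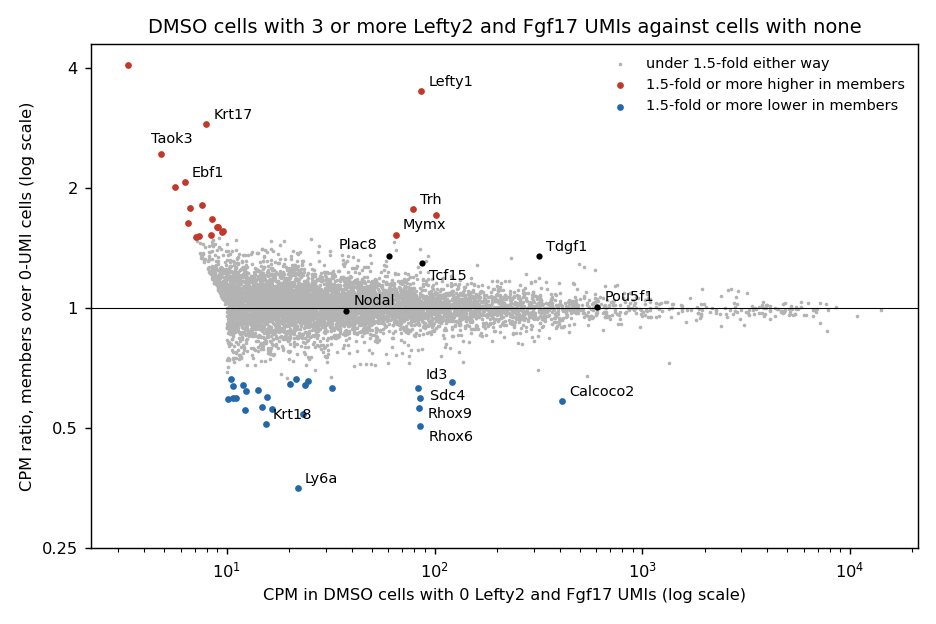
Each point is 1 of the 6549 genes measured in the DMSO library, without Lefty2 and Fgf17, with its CPM in 0-UMI cells on the x axis (log scale) and the CPM ratio of members over 0-UMI cells on the y axis (log scale), and red and blue mark 1.5-fold higher and lower. Most genes lie close to a ratio of 1, Lefty1 stands highest of the labelled genes at 3.50, and Ly6a lies lowest at 0.353.

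Both markers named with the rule's genes were higher in members, by less than 1.5-fold. Tcf15 stood at 112 CPM in members and 86.7 CPM in 0-UMI cells, a ratio of 1.29 (1.22 to 1.38). Plac8 stood at 82.0 CPM in members and 60.7 CPM in 0-UMI cells, a ratio of 1.35 (1.26 to 1.45). Neither gene set the members apart, because cells with no Lefty2 or Fgf17 UMI carried both transcripts at similar levels. Thinned to 3000 UMIs, 25.8% of members and 20.1% of 0-UMI cells held a Tcf15 UMI.

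Of the Nodal pathway, the inhibitors were higher in members and the ligands and transducers differed little. Lefty1, the second Lefty inhibitor, was at 303 CPM in members and 86.5 CPM in 0-UMI cells, a ratio of 3.50 (3.35 to 3.65). Thinned to 3000 UMIs, 49.5% of members and 16.3% of 0-UMI cells held a Lefty1 UMI. Lefty1 shared 11 of the 451 stretches of 50 bases in the last 500 bases of its transcript with Lefty2, so nearly all 3′ reads could be told apart by sequence. The other 4 measured inhibitors, which act inside the cell, had ratios above 1 whose intervals excluded it but none reached 1.5-fold. The share of all genes with such intervals was not counted. Pmepa1, which keeps Smad2 and Smad3 from the receptor, was at 56.5 CPM in members and 42.8 CPM in 0-UMI cells, a ratio of 1.32 (1.21 to 1.44), and the ratios were 1.30 for Ski, 1.23 for Smad7 and 1.16 for Skil.

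Nodal itself differed by less than its counting error. It was at 36.9 CPM in members and 37.5 CPM in 0-UMI cells, a ratio of 0.98 (0.89 to 1.09). Gdf3, a related ligand, was at 136 CPM in members and 123 CPM in 0-UMI cells. The co-receptor Tdgf1 was at 429 CPM in members and 318 CPM in 0-UMI cells, a ratio of 1.35 (1.31 to 1.39), whereas its relative Cfc1 was at 17.2 CPM in members and 20.1 CPM in 0-UMI cells. The activin receptor gene Acvr2b had a ratio of 1.07, and the transducers Smad2, Smad4 and Trim33 lay between 0.89 and 1.07. By group, 5 of 9 listed inhibitors were measured with a median log2 ratio of 0.37, 3 of 6 receptors and co-receptors with 0.09, 2 of 7 ligands and processing genes with 0.06 and 3 of 5 transducers with 0.05, against 0.02 over all genes.

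Apart from Fgf17, 1 of 9 listed FGF ligands and 1 of 5 FGF receptors reached 10 CPM. Fgf4, the main FGF ligand of mouse embryonic stem cells, was at 100.1 CPM in members and 89.9 CPM in 0-UMI cells, a ratio of 1.11. Its receptor Fgfr1 was at 30.3 CPM in members and 34.9 CPM in 0-UMI cells, a ratio of 0.87 (0.77 to 0.97). Of 17 listed ERK response genes 6 were measured, and all 6 had ratios above 1 with none at 1.5-fold. Over all genes, 3779 of 6549 had a ratio above 1. The intervals of 3 of the 6 ERK response genes excluded 1, but the like count over all genes was not made. The highest ratios were 1.26 for the early response factor Egr1 and 1.24 for the ETS factor Etv1.

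Next to Lefty1, genes at 20 CPM or more that were at least 1.5-fold higher in members included Krt17, Trh and Mymx. Krt17, a type I keratin, was at 23.0 CPM in members and 7.94 CPM in 0-UMI cells, a ratio of 2.89 (2.49 to 3.36). It shared 43 of 451 stretches of 50 bases with Krt14, the largest such share among the genes checked, so its count is less certain. Trh, the precursor of thyrotropin-releasing hormone, was at 139 CPM in members and 78.7 CPM in 0-UMI cells, a ratio of 1.77 (1.67 to 1.87). Mymx, a membrane microprotein of myoblast fusion, was at 99.3 CPM in members and 65.0 CPM in 0-UMI cells, a ratio of 1.53 (1.43 to 1.63).

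Below 1.5-fold came Antkmt at 1.49, Pcbp4 at 1.47, the keratin Krt42 at 1.47 and the cell cycle regulator Ccnd1 (cyclin D1) at 1.46. Gap43, Pitpnc1, Foxp1, Zfp219, Isyna1 and Maoa had ratios from 1.40 to 1.44. Of genes under 20 CPM, picked after their values were seen, the transcription factor Ebf1 was at 12.9 CPM in members and 6.25 CPM in 0-UMI cells, and the kinase Taok3 was at 11.8 CPM in members and 4.84 CPM in 0-UMI cells.

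The genes lower in members were led by Ly6a. Ly6a, the surface antigen Sca-1, was at 7.75 CPM in members and 21.97 CPM in 0-UMI cells, a ratio of 0.353 (0.281 to 0.438). It shared 20 of 451 stretches of 50 bases with I830127L07Rik, so its count is also less certain. Rhox6, a homeobox gene of the X chromosome, was at 43.1 CPM in members and 85.1 CPM in 0-UMI cells, a ratio of 0.506 (0.460 to 0.555), and Rhox9 was at 47.2 CPM in members and 84.0 CPM in 0-UMI cells, a ratio of 0.563 (0.514 to 0.615). Calcoco2, an autophagy receptor, was at 240.2 CPM in members and 411 CPM in 0-UMI cells, a ratio of 0.585 (0.562 to 0.608). Gabarapl2, a protein of the autophagosome membrane, was at 368 CPM in members and 544 CPM in 0-UMI cells, a ratio of 0.676, which is less than a 1.5-fold difference.

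Other genes that were lower included the p53 target Plk2 at 0.543, the heparan sulphate proteoglycan gene Sdc4 at 0.595 and Id3, an inhibitor of basic helix-loop-helix factors, at 0.630. Id2 had a ratio of 0.778, with 103 CPM in members and 132 CPM in 0-UMI cells. Pierce1, Ube2h, Ddit4l, Slc25a20, Fbp2, Arih2 and Platr16 lay between 0.631 and 0.697. Thinned to 3000 UMIs, 5.91% of members and 12.02% of 0-UMI cells held a Rhox6 UMI, and 39.7% of members and 51.1% of 0-UMI cells held a Calcoco2 UMI.

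Weighting the 0-UMI cells to the members' spread of UMIs per cell, in 10 classes, kept the direction of all 20 higher and all 26 lower genes. Of the 20 higher genes 17 stayed at 1.5-fold or more, and 18 of the 26 lower genes. The weighted ratios were 3.86 for Lefty1, 1.38 for Tcf15, 1.21 for Plac8 and 0.437 for Rhox6.

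Levels followed the number of Lefty2 and Fgf17 UMIs below the limit as well as above it. Over cells with 0, 1, 2, 3 to 4 and 5 to 9 UMIs, Lefty1 was at 86.5, 169, 228, 282 and 355 CPM. Krt17 was at 7.94, 12.7, 17.4, 21.8 and 26.6 CPM over the same classes. Other genes changed mainly between 0 and 1 UMI. Calcoco2 was at 411 CPM with 0 UMIs and then at 267, 237, 244 and 228 CPM. Tcf15 was at 86.7, 108.5, 113, 113 and 111 CPM, so its level was no higher in members than in cells with 2 UMIs. Nodal stayed between 33.6 and 38.1 CPM in all 5 classes. Median UMIs per cell also rose over the classes, at 5644, 6318, 6929, 7436 and 7894. The part of depth in these levels was not tested.

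**Figure D2:**
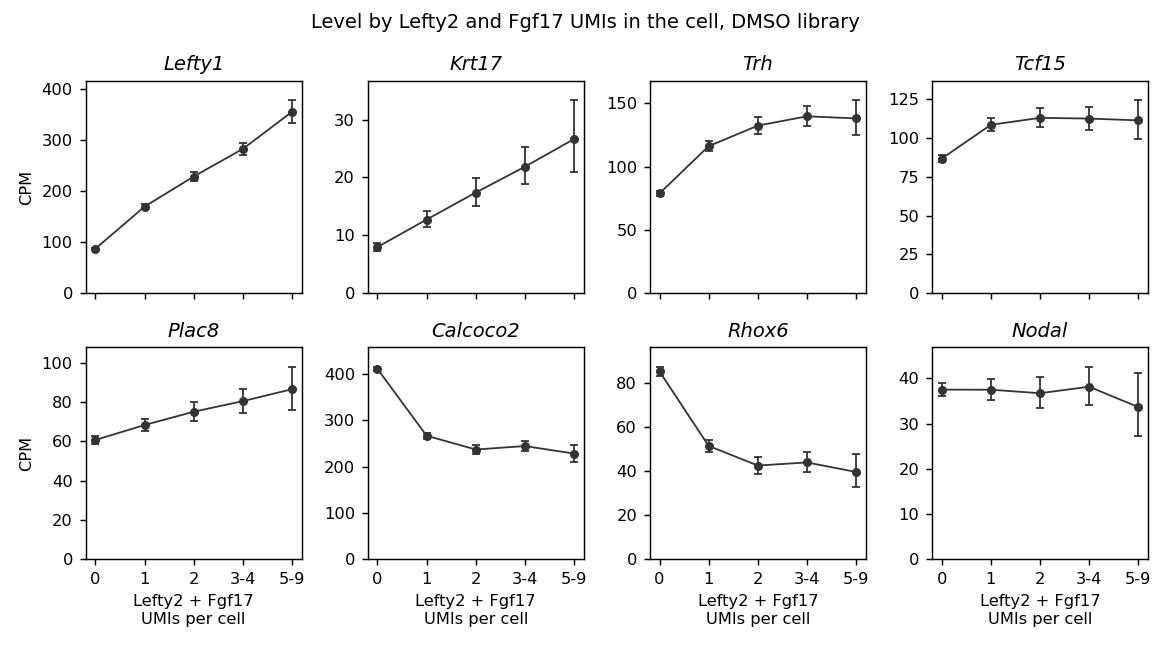
Level in CPM (y axis, from 0) of single genes in DMSO cells by their number of Lefty2 and Fgf17 UMIs (x axis), with exact Poisson intervals, in 11310, 3675, 1572, 999 and 316 cells. Lefty1 climbs through all 5 classes, to 355 CPM, while Calcoco2 is highest, at 411 CPM, in cells with 0 UMIs. Median UMIs per cell rise over the same classes, from 5644 to 7894.

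Which of the pair a cell held went with different genes, in a split chosen after the values were seen. The 413 members with both genes and the 899 with Lefty2 alone were set beside the 921 kept cells that held Fgf17 and no Lefty2 UMI, of which 9 were members. Lefty1 was 3.50-fold the 0-UMI level in members with both genes, 3.51-fold in members with Lefty2 alone and 1.46-fold (1.35 to 1.57) in Fgf17 cells without Lefty2. Krt17 was at 2.94-fold, 2.89-fold and 1.86-fold in the same order of classes. The classes had unlike limits, because an Fgf17 cell without Lefty2 needed 1 UMI and a member 3. Cells with 1 UMI of the pair had Lefty1 at 169 CPM and Krt17 at 12.7 CPM, against 86.5 and 7.94 CPM in 0-UMI cells. The part of UMI number in these gaps was not tested.

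Tcf15 went the other way. It was at 139 CPM in members with both genes, a ratio of 1.60 (1.46 to 1.76), at 98.7 CPM in members with Lefty2 alone, a ratio of 1.14 (1.05 to 1.23), and at 149 CPM in Fgf17 cells without Lefty2, a ratio of 1.72 (1.61 to 1.84), against 86.7 CPM in 0-UMI cells. Rhox9 was at 0.219 of the 0-UMI level in members with both genes and 0.223 in Fgf17 cells without Lefty2, but 0.735 (0.667 to 0.808) in members with Lefty2 alone. Rhox6 had ratios of 0.246, 0.278 and 0.637 in the same order of classes. Id3 was at 0.670 in members with both genes and 0.609 in those with Lefty2 alone, but 1.11 in Fgf17 cells without Lefty2. Trh had ratios of 1.96, 1.68 and 1.70 in members with both genes, members with Lefty2 alone and Fgf17 cells without Lefty2.

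**Figure D3:**
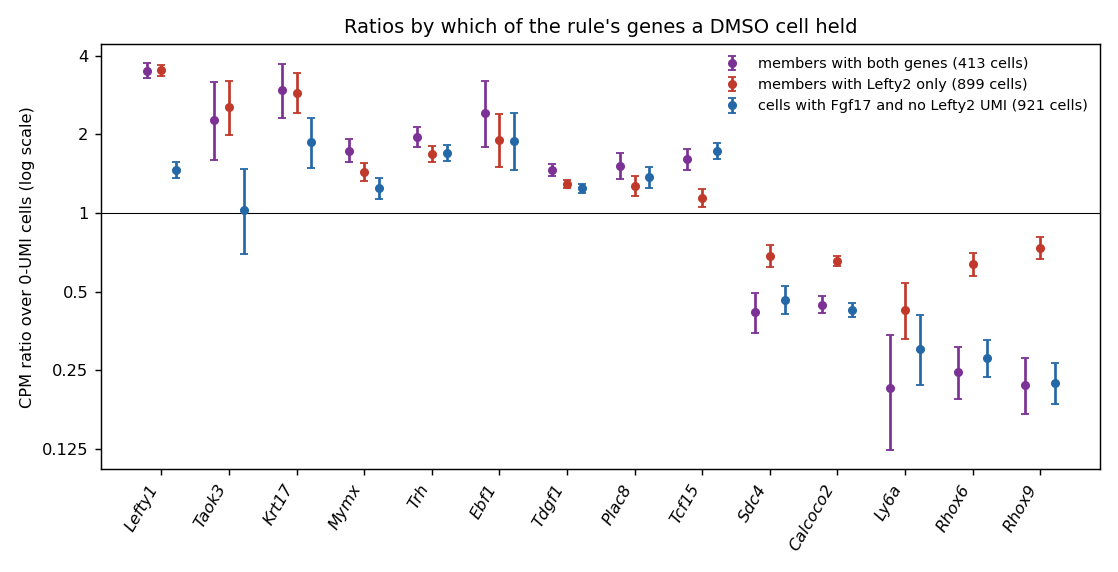
CPM ratio over 0-UMI cells (y axis, log scale, with exact intervals) of single genes (x axis) in members with both genes, members with Lefty2 alone and cells with Fgf17 and no Lefty2 UMI, DMSO library. Lefty1 is at about 3.50 in both classes of members, and Tcf15 is higher in both classes that hold Fgf17 than in members with Lefty2 alone.

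The pair itself was loosely tied. Over all kept DMSO cells, Fgf17 was at 13.9 CPM in cells with 0 Lefty2 UMIs, 19.8 CPM with 1, 21.9 CPM with 2 and 22.2 CPM (19.3 to 25.5) with 3 or more. The share of cells with an Fgf17 UMI was 7.53%, 12.05%, 14.1% and 16.1% in the same classes. After thinning it was 4.14%, 5.55%, 3.92% (2.50% to 5.82%) and 7.28% (4.13% to 11.7%), the last 2 from 587 and 206 cells. Those last 2 intervals are too wide to show whether the order held.

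Markers of pluripotency differed by less than 1.5-fold, and some were moderately higher or lower in members. Pou5f1 was at 612 CPM in members and 608 CPM in 0-UMI cells, Sox2 at 299 CPM in members and 289 CPM in 0-UMI cells, and Nanog at 88.3 CPM in members and 86.7 CPM in 0-UMI cells. L1td1, an RNA-binding protein of pluripotent cells, was at 637 CPM in members and 494 CPM in 0-UMI cells, a ratio of 1.29 (1.26 to 1.32), and Tdgf1, on the same list of 10 shared pluripotency genes, had a ratio of 1.35. The 10 genes summed to 2779 CPM in members and 2479.9 CPM in 0-UMI cells. Of 17 naive pluripotency genes 16 were measured and none differed by 1.5-fold. Of these 16, 13 had a ratio above 1, with a median log2 ratio of 0.12. The intervals of 10 lay above 1 and those of 2 below it. Esrrb had a ratio of 1.18, Nr0b1 of 1.26, Klf4 of 0.772 and Dppa3 of 0.768. All 7 measured genes of 10 listed for exit from the naive state had ratios above 1 without reaching 1.5-fold. Their median log2 ratio was 0.17, and the Wnt inhibitor Sfrp1 was among them at 1.34. The intervals of 5 of the 7 excluded 1, and over all genes 3779 of 6549 had ratios above 1. Tcf15 and Plac8, the markers already given above, are among those 5, so they add nothing new here. How many of all genes had an interval that excluded 1 was not counted. Of 14 formative genes 5 were measured, and their median was 0.16.

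Markers of primitive streak and nascent mesoderm were low in both groups. The 9 primitive streak genes summed to 7.40 CPM in members and 5.98 CPM in 0-UMI cells, with 1 of them at 0 in members. The 9 nascent mesoderm genes without Lefty2 summed to 13.8 CPM in members and 14.4 CPM in 0-UMI cells, with 3 at 0 in members, and Etv2 made up most of it at 11.6 CPM in members and 10.3 CPM in 0-UMI cells. Of 7 definitive endoderm genes Trh alone reached 10 CPM and 3 were at 0 in members. Of 7 neural ectoderm genes the neuronal tubulin Tubb3 alone reached 10 CPM, at 64.2 CPM in members and 49.5 CPM in 0-UMI cells, a ratio of 1.30 (1.20 to 1.41). No germ layer name is given to these cells.

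The 11 listed trophoblast genes summed to 117 CPM in members and 206 CPM in 0-UMI cells, and Rhox6 and Rhox9 made up most of that sum. Of the 4 measured, Rhox6, Rhox9 and Krt18 were at least 1.5-fold lower in members, against 0.397% of all genes, but Krt18 entered only through the 0-UMI cells, at 7.84 CPM in members and 15.4 CPM in 0-UMI cells. Krt8 had a ratio of 1.07. The 11 genes of the 2-cell-like state summed to 3.74 CPM in members and 6.46 CPM in 0-UMI cells. Extraembryonic endoderm genes summed to 176 CPM in members and 197 CPM in 0-UMI cells, and fibroblast genes to 31.5 CPM in members and 36.8 CPM in 0-UMI cells. Their part in the differences above was not tested.

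Cell cycle genes differed slightly. All 42 S phase genes were measured and none differed by 1.5-fold, but 8 had a ratio above 1, with a median log2 ratio of -0.09. All 52 G2 and M phase genes were measured and none differed by 1.5-fold, 43 had a ratio above 1, and their median was 0.12. Over all genes, 3779 of 6549 had a ratio above 1. The DNA topoisomerase gene Top2a was at 664 CPM in members and 524 CPM in 0-UMI cells, a ratio of 1.27 that was 1.09 when 0-UMI cells were weighted to the members' depth. Cyclin E2 (Ccne2) was at 12.4 CPM in members and 18.1 CPM in 0-UMI cells, a ratio of 0.683 that was 0.861 with that weighting. The median of the G2 and M genes was 0.01 with it.

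Thinned to 3000 UMIs, members held a median of 14 S phase and 32 G2 and M UMIs, against 15 and 29 in 0-UMI cells. Weighting 0-UMI cells to the members' cell cycle classes instead left all 20 of the higher genes and 25 of the 26 lower ones at 1.5-fold or more.

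Of 25 p53 targets 22 were measured, with a median log2 ratio of -0.17. Plk2 was the single one at least 1.5-fold lower in members, against 0.397% of all genes, and none was 1.5-fold higher. Plk2 was at 12.6 CPM in members and 23.2 CPM in 0-UMI cells. Mdm2, the main negative regulator of p53, was at 35.7 CPM in members and 49.4 CPM in 0-UMI cells. The 25 targets summed to 2906 CPM in members and 3018 CPM in 0-UMI cells, a ratio of 0.963 (0.952 to 0.974). After thinning, cells of both groups held a median of 9 UMIs of these targets. Of 14 Wnt pathway genes 5 were measured and all had ratios above 1, with a median of 0.36 and intervals excluding 1 for 3 of them. Over all genes, 3779 of 6549 had ratios above 1, with a median of 0.02, and intervals that excluded 1 were not counted. Glycolysis genes had a median of 0.13 over 15 measured of 16. Tex10 was at 74.7 CPM in members and 81.9 CPM in 0-UMI cells, a ratio of 0.91 (0.85 to 0.98).

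Members were not a cluster of their own. Clustering the kept DMSO cells without Lefty2 and Fgf17 gave 14 clusters, and each held members. Over the 11 clusters with at least 200 cells the share ran from 3.48% to 16.9%. Cluster 8, led by Krt17, Bmp4, Ttn, Zic5 and Mymx, had 241 members among 1422 cells (16.9%, interval 15.03% to 19.001%). It held 18.2% of all members, at a median of 6641.5 UMIs per cell. Lefty1 and Lefty2 were also among its 10 leading genes, as Lefty2 was left out of the clustering but not of this ranking. Cluster 6, led by Acta2 and Myl9, followed with 12.6% at a median of 8150 UMIs, and cluster 11, led by Hba-x and Ebf1, with 12.4% at 6970 UMIs.

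The lowest shares were in cluster 10, led by Ly6a and Crxos, with 3.48% at a median of 6307 UMIs, in cluster 1, led by Wfdc2 and Plac8, with 3.78% at 4916 UMIs, and in cluster 3, led by Rhox9 and Rhox6, with 4.21% at 5788 UMIs. Cluster 9 had 8.21% members at a median of 7006.5 UMIs. The part of depth in these shares was not tested. Of the nearest neighbours of a member, 15.5% were members, against 6.78% of the neighbours of a 0-UMI cell.

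**Figure D4:**
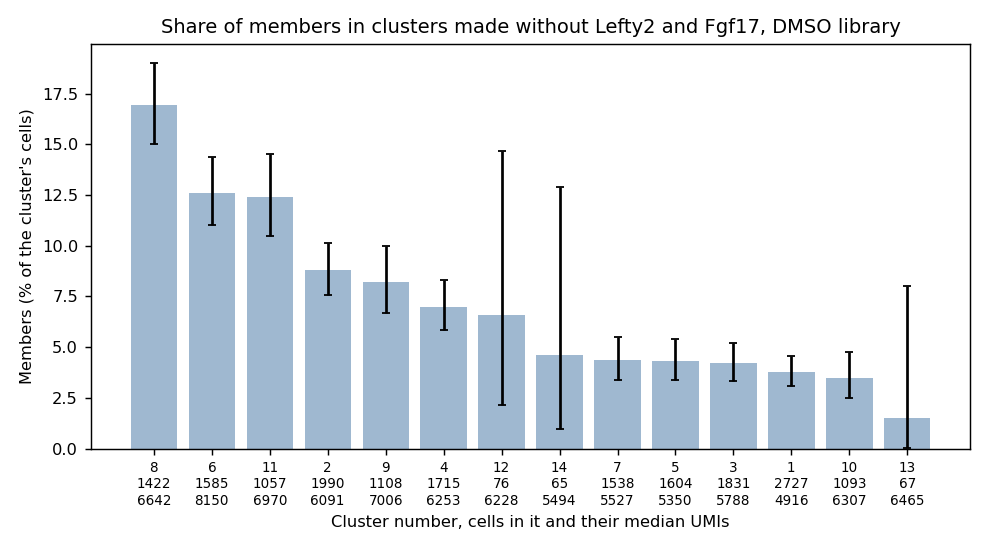
Share of each cluster's cells that are members (y axis, percent, from 0, with exact binomial intervals) in the DMSO library, with the cluster's number, its cells and their median UMIs on the x axis. Cluster 8 is highest at 16.9%, and among clusters of at least 200 cells cluster 10 is lowest at 3.48%.

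The same rule found fewer cells after dTAG13. It took 452 of 11588 kept cells (3.90%, 3.56% to 4.27%) in the dTAG13 library and 1321 of 17878 (7.39%) in the DMSO library. Thinned to 3000 UMIs, the shares were 0.566% (0.436% to 0.722%) of dTAG13 cells and 1.40% (1.23% to 1.58%) of DMSO cells. Both genes were held by 73 of the dTAG13 members (16.2%) and 413 of the DMSO members (31.3%). Treatment and library cannot be told apart here.

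Within the dTAG13 library, 79 of 6936 measured genes were at least 1.5-fold higher in members (1.14%) and 168 at least 1.5-fold lower (2.42%), with fewer members behind each value. The dTAG13 members had a median of 9116.5 UMIs, against 6758.5 in dTAG13 0-UMI cells. The dTAG13 ratios given here are not weighted to that difference in depth. Lefty1 was at 353 CPM in dTAG13 members and 65.6 CPM in dTAG13 0-UMI cells, a ratio of 5.38 (5.08 to 5.69), against 3.50 in DMSO cells. Trh was at 177 CPM in dTAG13 members and 54.4 CPM in dTAG13 0-UMI cells, a ratio of 3.25 (3.01 to 3.50), against 1.77 in DMSO cells. Tcf15 had a ratio of 1.91 (1.68 to 2.17) in dTAG13 cells and 1.29 in DMSO cells, though at 58.2 CPM its level in dTAG13 members was below the 112 CPM of DMSO members.

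Tdgf1 had a ratio of 1.75 in dTAG13 cells and 1.35 in DMSO cells. Krt17 was at 5.06 CPM in dTAG13 members and 2.77 CPM in dTAG13 0-UMI cells, a ratio of 1.82 (1.14 to 2.80), against 2.89 in DMSO cells. Both dTAG13 levels were under the 10 CPM minimum, and the level in members rests on 24 UMIs. Nodal was at 75.2 CPM in dTAG13 members and 87.9 CPM in dTAG13 0-UMI cells. Its ratio was 0.856 (0.767 to 0.953), an interval that excluded 1, against 0.985 (0.885 to 1.09) in DMSO cells. The intervals of the libraries overlapped.

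Of the genes higher in members, 8 were at 1.5-fold or more in both libraries, which is 10.1% of the dTAG13 list and 40% of the DMSO list. Among them were Lefty1, Trh, Mymx, Ebf1, Taok3 and Epha2, the last of these an ephrin receptor chosen after its value was seen. In both libraries Ebf1, Taok3 and Epha2 were under 10 CPM in 0-UMI cells, so they entered only through the members. How many of the 79 and 168 dTAG13 genes entered through 1 group alone was not counted. Of the genes lower in members, 13 were shared, 7.74% of the dTAG13 list and 50% of the DMSO list, among them Rhox6, Rhox9, Calcoco2, Sdc4 and Krt18.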

How the data were processed

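The authors deposited, for each library, a matrix of whole-number UMI counts per gene and cell barcode with its gene and barcode lists. Counts came from Cell Ranger 8.0.1 per the file headers, and the submitters' processing notes name mm10, Seurat 5.0.1 and R 4.3.2. How the deposited barcodes were selected is not given in the labels or headers used. Of 33696 gene IDs 5.15% are absent from GENCODE M21, so no coordinates are printed.

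Cells were kept with 500 or more genes and 10% or less mitochondrial UMIs (17878 of 17958 DMSO and 11588 of 11644 dTAG13 barcodes). Members needed 3 or more UMIs. Counts were summed per group and set to CPM, and genes needed 10 CPM in either group. A call is a 1.5-fold ratio, with no test. Shares have exact Clopper-Pearson intervals, levels exact Poisson intervals and ratios exact conditional binomial intervals, all 95%. Cells were thinned without replacement to 3000 UMIs. No doublet caller was run and no doublets were removed, but an alternative dropped the 5% of cells with most UMIs. Clusters used 2000 variable genes, 30 components, 15 neighbours and Leiden at resolution 1 (leidenalg 0.10.2, scikit-learn 1.9.0), with Python 3.11.15, numpy 2.4.6 and scipy 1.17.1. Interval and ratio code was tested on simulated data.

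Named genes were the 15 highest and 15 lowest ratios among genes at 20 CPM with a UMI in 5% of the higher group's cells, without predicted, ribosomal protein and mitochondrial genes, plus up to 4 per list, the Nodal and FGF genes, the markers, Pou5f1, Sox2, Nanog and Tex10. Members and lists were chosen with earlier results of these data known. Genes outside the rule are said to be so, and some genes it takes in are not reported here.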

Additional observations from a re-analysis of the deposited data

How the results depend on the processing

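With limits of 2 or 5 UMIs, Lefty2 alone, Fgf17 alone, thinning to 3000 UMIs and removal of the deepest 5% of cells, the share of members was 8.67%, 0.897%, 3.52%, 0.0173%, 0.566% and 3.47% in dTAG13 cells (3.90% as reported), and 16.2%, 1.80%, 5.996%, 0.123%, 1.40% and 6.61% in DMSO cells (7.39% as reported). The 20 higher genes numbered 12 at 2 UMIs, 100 at 5 UMIs, 1632 with Fgf17 alone (few cells), 5 at 20 CPM, 2660 with no minimum CPM, 31 as a mean of cell CPM and 37 without the deepest 5%. The 26 lower genes numbered 17, 70, 1268, 13 and 5171 under the same settings up to no minimum, and 15 with Lefty2 alone. With a gene minimum of 1000, a mitochondrial limit of 5%, weighting by depth or cell cycle, or median-of-ratios scaling, both counts stayed within 1.5 times the reported ones. All 26 lower genes kept their direction under every setting except Fgf17 alone (24), and all 20 higher ones except at 5 UMIs (19) and with Fgf17 alone (17). Ratios turned round for Bok (0.883 at 5 UMIs) and, with Fgf17 alone, for Igsf8 (0.519), Mymx (0.570), Taok3 (0.836) and Pierce1 (1.04). The causes were not tested. No paired analysis was possible because each treatment has 1 library. Genes under 10 CPM and cells with few UMIs limit what the depth can show, and replicate spread is unknown.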

Other observations

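In the dTAG13 library, cells with 3 or more Lefty2 and Fgf17 UMIs were set against cells with 0. The 52 G2 and M phase genes had a median log2 ratio of 0.14 with 46 ratios above 1. The 42 S phase genes had a median of 0.06 with 29 above 1. Over all 6936 genes measured there, 3254 had a ratio above 1. These values were not weighted to depth, and the median was 9116.5 UMIs in the first group and 6758.5 in cells with 0. The trophoblast genes summed to 67.2 CPM in those dTAG13 cells and 134 CPM in dTAG13 0-UMI cells. Over dTAG13 cells with 0, 1, 2, 3 to 4 and 5 to 9 UMIs, Lefty1 was at 65.6, 175, 241, 322 and 412 CPM. Tcf15 was at 30.4, 41.8, 49.6, 54.3 and 65.8 CPM over the same classes. Median UMIs per cell rose over these classes too, from 6758.5 to 9423.5.

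Extraembryonic endoderm gene Sparc was at 145 CPM in members and 168 CPM in 0-UMI cells of the DMSO library.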
